A study of Mus musculus with 4 samples.

Results

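Fc receptors and the receptor Trem2 carry antibody and lipid signals into myeloid cells, and 8 genes of this system (Fcgr1, Fcgr3, Fcgr4, Fcgr2b, Trem2, Fcer1g, Tyrobp and Syk) were followed in cultured mouse pancreatic fibroblasts. They were taken by symbol from the 38921 gene intervals of the deposited tables, where each had 1 row. All 8 passed the filter on low counts. The libraries fell into 2 groups. KPC cultures (2 libraries) came from KPC mice, a mouse model of pancreatic cancer; the labels give the name KPC alone. Wild type cultures (2 libraries) came from mice labelled wild type. All 4 libraries share a mixed strain and growth after gravity separation in DMEM with 10% serum at 37 °C and 7% CO2. The age of the mice, and how many animals stand behind a library, are not given in the sources used here.

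Fc gamma receptors bind the constant part of IgG on immune complexes and coated cells. Fcgr1, Fcgr3 and Fcgr4 are the activating receptors of the mouse, and their ligand-binding chains signal through a small partner, the Fc receptor gamma chain encoded by Fcer1g. Fcgr2b is the inhibitory receptor, whose own tail recruits phosphatases. Trem2 binds lipids and lipoproteins and signals through Tyrobp (also called DAP12), a second small adaptor. Both adaptors carry an ITAM, a tyrosine motif that Src-family kinases phosphorylate and that the kinase Syk then binds. In most tissues these receptors and adaptors mark macrophages and related myeloid cells, while Syk is also made by some epithelial and endothelial cells.

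3 sets of sequences are given here, and all but the last bear on how the counts can be read. The first is the longest run that the Fcgr2b and Fcgr3 transcripts have in common, 129 coding bases in exons 3 and 4 of both, at chr1:170966674-170968081 (GRCm38, minus strand, intron included) in Fcgr2b and chr1:171054167-171057792 (minus strand, intron included) in Fcgr3. A read of 50 bases inside it matches both genes.
Shared run: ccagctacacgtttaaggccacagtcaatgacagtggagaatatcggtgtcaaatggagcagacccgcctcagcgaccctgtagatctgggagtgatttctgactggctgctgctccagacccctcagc
Of the 50-base windows of the longest coding Fcgr3 transcript, 12.8% also occurred in Fcgr2b, and 4.75% of the Fcgr2b windows occurred in Fcgr3. Of all Fcgr2b windows, 12.5% occurred in some other annotated gene, Fcgr3 included. The transcripts of Fcgr1, Fcgr4, Trem2, Fcer1g, Tyrobp and Syk shared no 50-base window with another annotated gene, among GENCODE M21 transcripts. Part of the counts of Fcgr3 and Fcgr2b is therefore uncertain between the pair.

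The second is the small nuclear RNA gene Gm26110, a copy of the U1 spliceosomal RNA by its shared windows with Rnu1a1. In GENCODE M21 it lies inside the Fcgr4 interval at chr1:171027965-171028129 (plus strand), and its reads also count towards Fcgr4.
Gm26110: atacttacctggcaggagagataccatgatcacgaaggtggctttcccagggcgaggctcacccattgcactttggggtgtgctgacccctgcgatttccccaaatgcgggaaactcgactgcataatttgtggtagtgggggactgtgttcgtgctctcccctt

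The third is a set of promoter stretches. RefSeq promoters (GRCm38.p6, 250 bases before to 50 after the start) were matched for 7 of the 8 members, not for Tyrobp. They were searched on both strands for GAGGAA, the core that the myeloid factor PU.1, encoded by Spi1, is known to bind. On the opposite strand the same core reads TTCCTC. It occurred in a promoter of 5 of the 7 genes (Fcgr1, Fcgr3, Fcgr4, Trem2 and the downstream of the 2 Syk promoters) and in a promoter of 31.3% of the 27025 genes of the table. Counted by promoter, it occurred in 6 of 9 of the members and in 28.3% of all 32851. The Fcgr3 promoters overlap and hold the same site, which the count by promoter takes once for each. The core is in capitals.
Fcgr1 (chr3:96294005-96294038, minus strand): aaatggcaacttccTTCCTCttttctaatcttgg
Fcgr3 (chr1:171059390-171059423, minus strand): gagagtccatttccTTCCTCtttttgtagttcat
Fcgr4 (chr1:171018890-171018923, plus strand): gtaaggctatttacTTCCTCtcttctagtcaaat
Trem2 (chr17:48346347-48346380, plus strand): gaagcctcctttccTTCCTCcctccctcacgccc
Syk (chr13:52596859-52596892, plus strand): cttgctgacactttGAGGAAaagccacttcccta
These are letter matches in a short window, not measured binding. Spi1 itself stood at 6.17 and 11.8 CPM in the KPC libraries, against 0.399 and 2.19 CPM in the wild type libraries. Whether PU.1 affects the levels of the members was not tested.

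Deposited counts summed to between 22302141 and 68312367 a library, with wild type 2 the shallowest. Levels are given as CPM, counts scaled to the library total after TMM correction, and the error of a single library is an exact 95% Poisson interval, which covers counting error only. KPC was compared with wild type by edgeR's quasi-likelihood test over 23046 rows, with Benjamini-Hochberg adjustment and a threshold of 0.05. That test called 0% of all rows in either direction (smallest adjusted p 0.211), so 0 of the 8 members passed it. At an unadjusted p under 0.05, 1090 rows were higher and 909 lower (4.73% and 3.94%), limma voom called 0 rows, and DESeq2 called 333 higher and 294 lower (1.44% and 1.28%). Correlations were taken on log2 CPM across the tested rows, which are not independent replicates. Wild type 2 correlated with KPC 2 at 0.969, with KPC 1 at 0.958 and with wild type 1 at 0.949. It thus stood closer to both KPC libraries than to the other wild type one. All 9 fibroblast markers were detected in every library, with summed levels of 10224 and 12053 CPM in KPC and 11625 and 10368 CPM in wild type. The sum was carried by Col1a1, Col1a2, Col3a1 and Vim, while Lum, named like the collagens after its values were seen, stood at 1.496 and 7.34 CPM in KPC, against 0.171 and 3.31 CPM in wild type.

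Fcgr1, Fcgr3, Fcgr2b, Trem2 and both adaptors had their 2 highest levels in the KPC cultures, and 2 members, Fcgr4 and Syk, overlapped between the groups. All 8 log2 fold changes were positive, with a median of 3.28, against a median of -0.01 over all tested rows. The groups did not overlap in 6 of the 8, all with KPC higher, beside 20.6% of all rows without overlap on that side and 20.5% on the other. 5 of the 8 had an unadjusted p under 0.05 on the higher side, where 4.73% of all rows did. In 5 of the 8 (Fcgr2b, Fcgr3, Fcer1g, Trem2 and Tyrobp) the lower KPC library was at least 2-fold above the higher wild type library, as in 2.14% of all rows (1.32% in the other direction); this cutoff was chosen after the values were seen. Since these are bulk cultures, more cells of a type and more RNA per cell cannot be told apart. The labels call the libraries of a group biological replicates without naming animals or cultures, and with 2 a group the spread behind each p is itself poorly known.

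**Figure D1:**
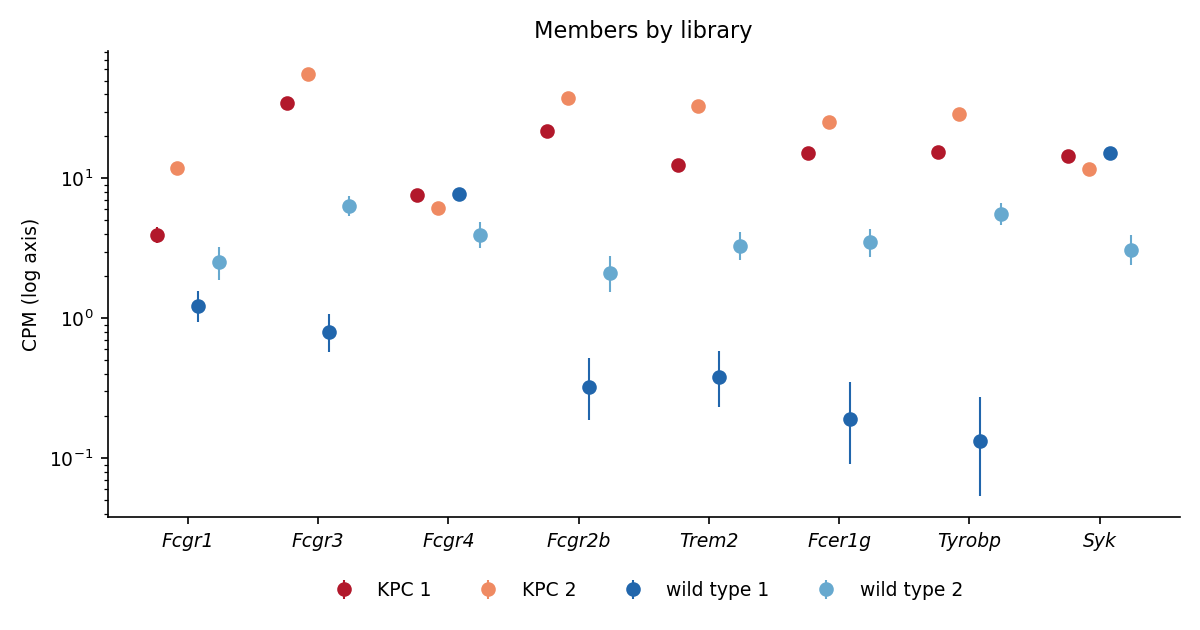
Level of each member in each library, in CPM on a log axis, with exact 95% Poisson intervals as bars. For Fcgr1, Fcgr3, Fcgr2b, Trem2, Fcer1g and Tyrobp both KPC libraries lie above both wild type libraries. Fcgr4, drawn with its nested row Gm26110 included, and Syk overlap.

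Among the activating receptors, Fcgr3 had the highest level per exon length in KPC. Fcgr3 (ENSMUSG00000059498.13, chr1:171051175-171064935 in mm10), the low-affinity IgG receptor of macrophages, stood at 34.8 and 55.8 CPM in KPC 1 and KPC 2, against 0.799 and 6.35 CPM in wild type 1 and wild type 2. The KPC libraries were both above the wild type libraries, and the 2 wild type libraries differed 7.95-fold from each other. The log2 fold change of Fcgr3 was 3.71 ± 1.01 (SE), with an adjusted p of 0.482 in edgeR. Fcgr1 (ENSMUSG00000015947.10, chr3:96282910-96293969), the high-affinity receptor, stood at 3.93 and 11.9 CPM in KPC, against 1.22 and 2.50 CPM in wild type. The groups were apart by little, since KPC 1 was only 1.57-fold above wild type 2, and KPC 2 was 3.03-fold above KPC 1. Its log2 fold change was 2.11 ± 0.68 (SE), with an edgeR adjusted p of 0.538. The 64 counts of Fcgr1 in wild type 1 covered 402 bases, where 56 counts covered 652 bases in wild type 2, and 231 covered 2199 bases in KPC 1.

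Fcgr4, the activating receptor of monocytes and neutrophils that binds IgG2 complexes, did not separate the groups as deposited. Its interval (ENSMUSG00000059089.4, chr1:171018921-171029761) held 7.62 and 6.13 CPM in KPC, against 7.78 and 3.94 CPM in wild type, a log2 fold change of 0.22 ± 0.39 (SE, edgeR adjusted p = 0.914). The counts were not spread alike, however: 409 counts covered 691 bases in wild type 1, while 448 counts covered 1638 bases in KPC 1. The nested U1 copy Gm26110, printed above, held 10 and 12 counts in KPC 1 and KPC 2, against 377 and 56 counts in wild type 1 and wild type 2. That is 2.23% and 2.88% of the Fcgr4 counts in KPC, against 92.2% and 63.6% in wild type.

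With the counts of the nested row taken out, Fcgr4 kept 438 and 404 counts in KPC and 32 and 32 counts in wild type. These are 7.45 and 5.96 CPM in KPC, against 0.609 and 1.43 CPM in wild type, and the groups no longer overlapped. The log2 fold change was then 2.76 ± 0.49 (SE), with an unadjusted p of 0.00287 and an adjusted p of 0.315 in edgeR. This correction was chosen after the data were seen, and it takes every read on Gm26110 as counted in Fcgr4 too. The U1 counts themselves moved with the groups beyond this locus. In all 23 other deposited rows that share 50-base windows with Gm26110, both KPC libraries were below both wild type libraries, and wild type 1 was the highest. Their median level was 0.255 and 0.236 CPM in KPC, against 8.85 and 3.53 CPM in wild type. Since reads in shared windows match several of these rows, they are not separate observations. Why U1 reads differed between these poly-A libraries was not tested.

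**Figure D2:**
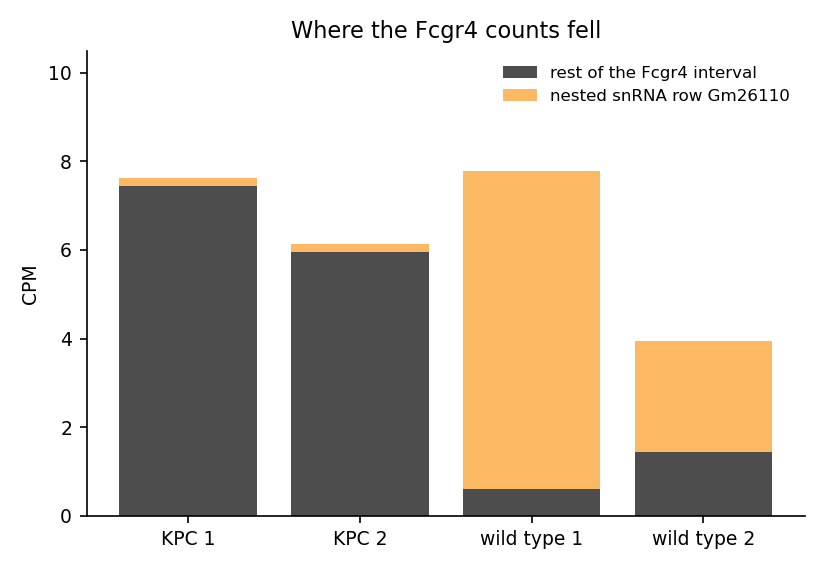
Level of the Fcgr4 interval in each library, in CPM, split into the nested snRNA row Gm26110 and the rest of the interval. Gm26110 holds 92.2% of the counts in wild type 1 and 2.23% in KPC 1, so the total bars hide a difference in the rest of the interval.

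Fcgr2b, the inhibitory receptor, had the largest fold change of the 8. It (ENSMUSG00000026656.15, chr1:170960559-170976547) stood at 21.7 and 37.5 CPM in KPC, against 0.323 and 2.10 CPM in wild type. The lower KPC library was 10.3-fold above the higher wild type library. Its log2 fold change was 4.72 ± 0.94 (SE), the unadjusted p was 0.00468 and the adjusted p 0.357 in edgeR. Of all members it had the smallest p, at rank 302 of 23046 rows, and it was the 1 member that DESeq2 called (adjusted p = 1.05e-06, where DESeq2 called 1.44% of all rows higher).

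The share of the inhibitory receptor in the counts of the Fcgr2b and Fcgr3 pair was above the wild type values in both KPC libraries. Fcgr2b held 38.4% and 40.2% of the summed counts of both genes in KPC 1 and KPC 2 (exact 95% binomial intervals 36.8 to 40.1 and 39.0 to 41.4). It held 28.8% of 59 counts in wild type 1 and 24.9% of 189 counts in wild type 2 (intervals 17.8 to 42.1 and 18.9 to 31.7). The wild type 2 interval lay below both KPC intervals, while the interval of wild type 1 contained both of them. This share does not depend on library scaling. An exact two-sided permutation test gave p = 0.333, the smallest that 2 libraries against 2 can give, and 3 such shares were computed (p = 1 for the other two, described below), so adjustment could not lower it. The pair shares reads in the run printed above, so the share is itself uncertain.

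Trem2, the lipid receptor, was higher in KPC with a wide spread between libraries. It (ENSMUSG00000023992.14, chr17:48346402-48354147) stood at 12.4 and 32.8 CPM in KPC, against 0.380 and 3.31 CPM in wild type. KPC 1 was 3.75-fold above wild type 2, and KPC 2 was 2.65-fold above KPC 1. The log2 fold change was 3.69 ± 1.12 (SE), with an adjusted p of 0.525 in edgeR. Wild type 1 had 20 counts of Trem2 in all, and its 95% interval ran from 0.232 to 0.588 CPM.

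Both adaptor genes were higher in KPC, with the widest spread between wild type libraries of all members. Fcer1g (ENSMUSG00000058715.11, chr1:171229573-171234365) stood at 15.3 and 25.1 CPM in KPC, against 0.190 and 3.49 CPM in wild type. Tyrobp (ENSMUSG00000030579.10, chr7:30413789-30417577) stood at 15.5 and 28.9 CPM in KPC, against 0.133 and 5.55 CPM in wild type. For both, the KPC libraries were the high ones and wild type 1 had few reads, with 10 counts of Fcer1g and 7 of Tyrobp. The wild type libraries differed 18.3-fold in Fcer1g and 41.6-fold in Tyrobp, more than KPC 1 and wild type 2 did (4.38-fold and 2.79-fold). The log2 fold change was 3.54 ± 1.26 (SE) for Fcer1g and 3.03 ± 1.47 (SE) for Tyrobp, with edgeR adjusted p of 0.551 and 0.629.

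The adaptors stood in a similar ratio to each other in both KPC libraries. Tyrobp made up 50.4% and 53.5% of the summed Tyrobp and Fcer1g counts in KPC 1 and KPC 2, against 41.2% of 17 counts in wild type 1 and 61.4% of 202 counts in wild type 2. The wild type 1 interval ran from 18.4 to 67.1%, so at this depth no difference from KPC was detectable there. Trem2 made up 44.5% and 53.2% of the summed Trem2 and Tyrobp counts in KPC, against 74.1% of 27 counts and 37.4% of 198 counts in wild type. For both shares the groups overlapped.

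Syk, the kinase that both adaptors recruit, did not separate the groups. It (ENSMUSG00000021457.14, chr13:52583174-52648792) stood at 14.4 and 11.7 CPM in KPC, against 15.1 and 3.09 CPM in wild type. Wild type 1 was the highest of the 4 libraries and wild type 2 the lowest, so the groups overlapped. The log2 fold change was 0.51 ± 0.73 (SE), with an adjusted p of 0.891 in edgeR. The Syk counts of wild type 1 were spread as widely as those of KPC, over 6115 bases against 5616 and 5537 bases in KPC 1 and KPC 2, of 9361 annotated exon bases. No other deposited row overlapped Syk. Wild type 1 was also the library with the endothelial signal: the 6 endothelial markers summed to 15.9 and 23.4 CPM in KPC, against 614 and 32.8 CPM in wild type 1 and wild type 2. Its summed epithelial markers were the lowest, at 1135 and 326 CPM in KPC, against 28.3 and 384 CPM in wild type. The part of either cell type in the Syk level was not tested.

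Leaving out 1 library moved these results. Without wild type 2, edgeR called 5 of the 8 members higher, Fcgr3, Fcgr2b, Trem2, Fcer1g and Tyrobp, with adjusted p from 0.0139 to 0.0373, where 1.86% of all rows were called higher and 1.69% lower. The group then holds wild type 1 alone, which is assumed to vary like the KPC libraries. Without wild type 1, 0 of the 8 were called (0% of all rows higher, 0.026% lower), and the log2 fold changes of the same 5 genes ran from 2.00 (Tyrobp) to 3.81 (Fcgr2b). Syk turned to -0.21 without wild type 2 and to 2.08 without wild type 1.

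**Figure D3:**
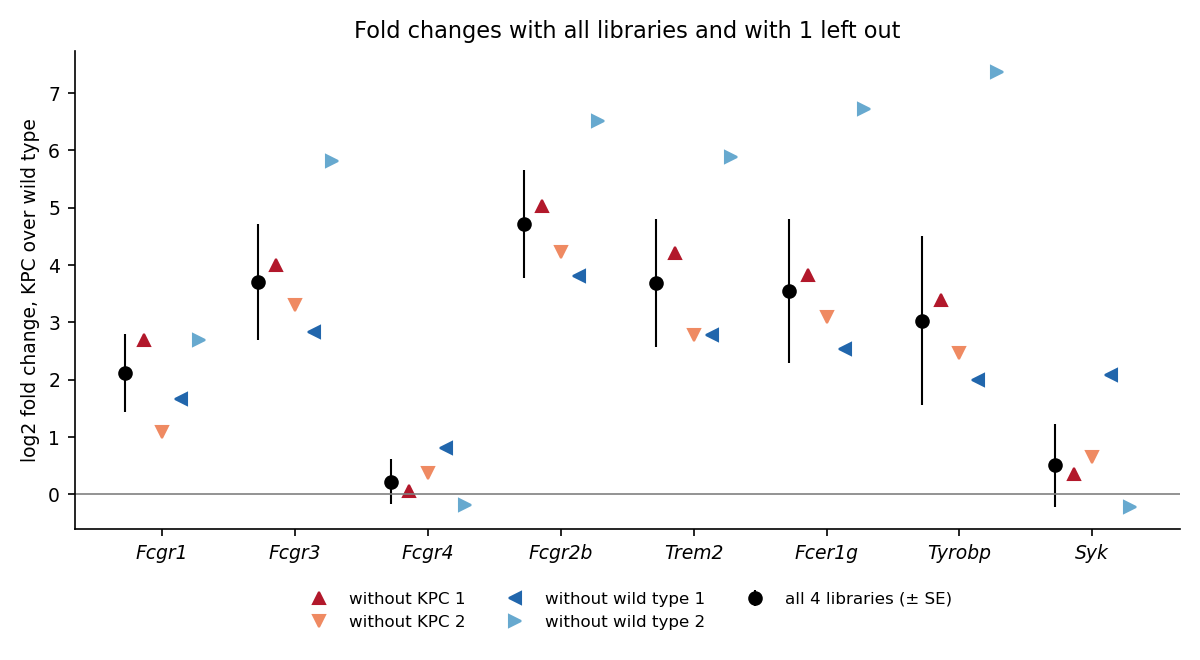
Log2 fold change of KPC over wild type for each member in edgeR, with all 4 libraries (black, ± SE) and with each library left out in turn. Leaving out wild type 2 raises Tyrobp to 7.36, and leaving out wild type 1 lowers it to 2.00, while Fcgr4 and Syk cross 0. Fcgr4 is drawn with its nested row Gm26110 included. Without that row its log2 fold change is 2.76 with all 4 libraries.

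Levels of different genes can be set side by side only per length. As CPM per kilobase of annotated exon, Tyrobp was the highest member in KPC, at 24.6 and 45.8. Fcgr3 (20.0 and 32.1) and Fcer1g (17.5 and 28.7) came next, and these 3 neighbours overlapped between the KPC libraries. Fcgr2b followed at 5.65 and 9.74, below all of these. Fcgr4 at 6.07 and 4.89, Trem2 at 2.51 and 6.64, Fcgr1 at 1.52 and 4.59, and Syk at 1.54 and 1.25 came after it, each overlapping its neighbour in that order. In wild type the values per kilobase of exon reached 8.80 for Tyrobp, 3.996 for Fcer1g and 3.66 for Fcgr3, all in wild type 2. In wild type 1 Tyrobp stood at 0.211 and Fcer1g at 0.218, and Fcgr4 (6.20, mostly the nested U1 copy) and Syk (1.62) were the highest members there. The order of Trem2 depends on the length used: its annotated exons together span 4945 bases and its longest coding transcript 1088 bases, and over that transcript it stood at 11.4 and 30.2 CPM per kilobase in KPC, above Fcgr2b (6.13 and 10.6).

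Some reads lay outside annotated exons. Fcer1g counts covered 1472 and 2203 bases in KPC, against 267 and 809 bases in wild type, while its annotated exons hold 873 bases. At least 599 and 1330 covered bases in KPC were thus intronic or otherwise outside the exons. The same held in KPC 1 and KPC 2 for Fcgr3 (at least 963 and 1212 bases), Fcgr4 (383 and 427) and Tyrobp (291 and 405), and for Fcgr1 in KPC 2 (609). Tyrobp in wild type 2 also covered at least 32 bases beyond its exons. For the other members in wild type the covered length stayed below the exon length. Such a length cannot tell whether any covered bases lay outside the exons. Covered length also depends on the number of reads, so these lengths are not levels.

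Markers of macrophages differed between the same libraries. All 17 genes of the macrophage list were tested and had a positive log2 fold change, with a median of 2.86. KPC was higher without overlap in 16 of the 17, beside 20.6% of all rows, and Cx3cr1 was the exception. Their summed level was 1220 and 2412 CPM in KPC, against 115 and 325 CPM in wild type, with none of the 17 at 0 in any library. The order of the libraries by this sum (KPC 2, KPC 1, wild type 2, wild type 1) was also the order of Fcgr1, Fcgr3, Fcgr2b, Trem2, Fcer1g and Tyrobp. Mrc1, the mannose receptor, stood at 31.5 and 26.4 CPM in KPC, against 1.67 and 4.43 CPM in wild type, and Ptprc, the leukocyte antigen CD45, at 3.89 and 7.65 CPM, against 0.875 and 1.21 CPM. Emr1, which encodes F4/80, stood at 7.34 and 14.2 CPM in KPC, against 2.13 and 3.35 CPM in wild type. Laptm5, a lysosomal membrane protein of leukocytes, stood at 109 and 151 CPM in KPC, against 3.18 and 15.5 CPM in wild type.

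Set against the macrophage sum, Fcgr2b and Fcgr3 lay higher in both KPC libraries and Fcgr1 lay lower. Trem2, Fcer1g, Tyrobp and Syk overlapped between the groups. Tyrobp was 1.27% and 1.20% of that sum in KPC, against 0.116% and 1.71% in wild type 1 and wild type 2. Fcer1g was 1.25% and 1.04% in KPC, against 0.166% and 1.07% in wild type, and Trem2 was 1.02% and 1.36%, against 0.331% and 1.02%. Fcgr3 was 2.85% and 2.31% in KPC, against 0.696% and 1.95% in wild type. Fcgr2b was 1.78% and 1.55% in KPC, against 0.282% and 0.647% in wild type, and was the member whose KPC values lay farthest above both wild type values. Fcgr1 stood at 0.322% and 0.493% in KPC, against 1.06% and 0.771% in wild type. Fcgr4 stood at 0.624% and 0.254% in KPC, against 6.77% and 1.21% in wild type with its nested row included. Without that row Fcgr4 stood at 0.61% and 0.247% in KPC, against 0.53% and 0.441% in wild type, and the groups overlapped. Syk stood at 1.18% and 0.486% in KPC, against 13.2% and 0.95% in wild type. Lyz2, a lysozyme gene named after its values were seen, makes up much of the sum in KPC (629 and 1416 CPM, against 6.24 and 132 CPM in wild type). In wild type 1, much of the 115 CPM came from Itgam (45.0 CPM) and Cx3cr1 (39.2 CPM), also named after their values were seen. Itgam stood at 63.0 and 81.2 CPM in KPC and 43.6 CPM in wild type 2. Cx3cr1 stood at 52.7 and 45.9 CPM in KPC and 48.0 CPM in wild type 2. The shares, the low ones of wild type 1 above all, therefore depend on which markers are summed. How far macrophage content accounts for the levels of the members was not tested.

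**Figure D4:**
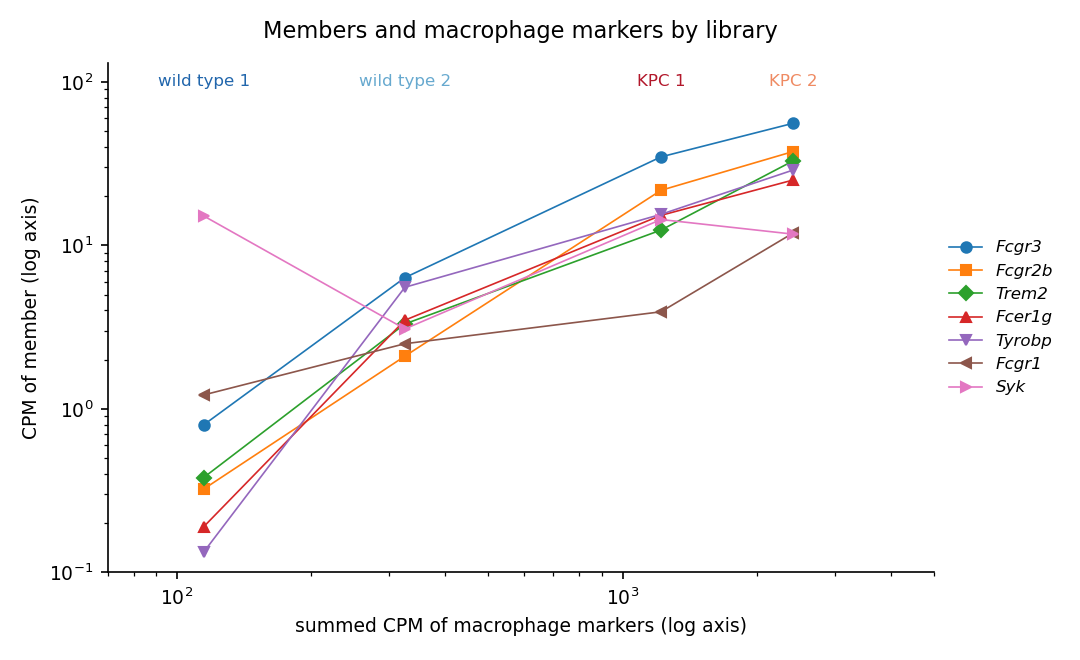
Level of 7 members (CPM, log axis) against the summed CPM of 17 macrophage markers (log axis), 1 point per library, with lines joining a gene's points and Fcgr4 left out because of its nested row. The 6 receptors and adaptors are higher in each library with a higher marker sum; Syk is as high in wild type 1 (15.1 CPM) as in KPC 1 (14.4 CPM).

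Markers of other cells that use these receptors were mostly low. Natural killer cell markers summed to 1.31 and 1.65 CPM in KPC, against 1.20 and 1.30 CPM in wild type, and T cell markers to 1.33 and 1.504 CPM, against 3.08 and 2.37 CPM. Of the B cell markers, the immunoglobulin gene Ighm stood at 0.51 and 16.0 CPM in KPC, against 0.0761 and 0.76 CPM in wild type. Neutrophil markers summed to 49.2 and 2.37 CPM in KPC, against 0.628 and 1.30 CPM in wild type. Among them, Retnlg had 0 counts in all 4 libraries, Ly6g had 2 counts in all, and S100a8 stood at 48.1 and 0.663 CPM in KPC, against 0.0380 and 0.179 CPM in wild type. Of the mast cell markers, Tpsb2 had 0 counts in all libraries, as did Fcer1a, the IgE-binding chain that uses the same adaptor. The mast cell sum (205 and 208 CPM in KPC, against 225 and 195 CPM in wild type) was led by Cpa3 (176 and 204 CPM in KPC, against 217 and 181 CPM in wild type), with Mcpt8 at 26.1 and 2.08 CPM in KPC, against 0.856 and 11.4 CPM in wild type. Dendritic cell markers summed to 5.41 and 6.05 CPM in KPC, against 7.25 and 8.50 CPM in wild type.

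Over all pathway lists together, 99 of 121 genes were tested, 80 of them with a positive log2 fold change. An unadjusted edgeR p under 0.05 was found for 42 on the higher side and 0 on the lower side. Over all rows the shares with such a p were 4.73% and 3.94%. Other receptors that signal through one of the adaptors lay on the same side. Of 18 such genes, 15 were tested, and 15 of 15 log2 fold changes were positive with a median of 2.70. KPC was higher without overlap in 13, beside 20.6% of all rows. An unadjusted edgeR p under 0.05 was found for 10, beside 4.73% of all rows on the higher side. None of the 15 passed the adjusted threshold (smallest edgeR adjusted p 0.340). Clec4e, the C-type lectin Mincle, stood at 0.901 and 1.74 CPM in KPC, against 0.209 and 0.268 CPM in wild type, and its relative Clec4d at 12.2 and 31.6 CPM, against 0.209 and 6.13 CPM. Pira2, an activating immunoglobulin-like receptor, stood at 1.73 and 4.17 CPM in KPC, against 0.0571 and 0.581 CPM in wild type. Pilrb1, a paired receptor, had 647 and 140 counts in KPC, against 1 and 5 counts in wild type, the reverse order of the 2 KPC libraries; its close copy Pilrb2 had 674 and 138 counts in KPC, against 0 and 8 counts in wild type, so the pair is uncertain. Sirpb1a and Sirpb1c, also close copies of each other, stood at 2.35 and 5.19 CPM and at 3.65 and 9.01 CPM in KPC, against 0.495 and 0.671 CPM and 0.323 and 0.984 CPM in wild type. Cd300lb stood at 4.67 and 7.37 CPM in KPC, against 2.66 and 2.28 CPM in wild type, and Cd300c2 (given as Cd300c) at 0.391 and 0.413 CPM, against 0.114 and 0.134 CPM. Of the other TREM-locus receptors, 2 of 5 were tested. Trem1, an amplifier of inflammation on myeloid cells, stood at 2.80 and 8.88 CPM in KPC, against 0.0571 and 0.358 CPM in wild type, a log2 fold change of 5.06 ± 1.05 (SE, edgeR adjusted p = 0.362). Treml2 stood at 0.918 and 0.781 CPM in KPC, against 0.0380 and 0.134 CPM in wild type.

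Other proteins that bind antibody, or resemble those that do, were mixed. Of 12, 5 were tested, 2 with a positive log2 fold change and a median of -0.11. Fcgrt, the neonatal Fc receptor that recycles IgG in many cell types and named here after its values were seen, stood at 37.6 and 51.2 CPM in KPC, against 47.6 and 48.4 CPM in wild type. The cytosolic antibody receptor Trim21 stood at 1.44 and 2.05 CPM in KPC, against 2.17 and 1.88 CPM in wild type. The receptor-like genes Fcrla (17.0 and 16.8 CPM, against 20.2 and 17.6 CPM), Fcrlb (0.816 and 1.53 CPM, against 0.0571 and 0.358 CPM) and Fcrls (0.323 and 8.24 CPM, against 0.133 and 0.671 CPM) differed from each other in direction. Of the 6 other ITAM or related adaptors, Cd247 alone was tested (9.94 and 10.3 CPM in KPC, against 13.6 and 11.4 CPM in wild type).

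Receptors listed as inhibitory with an ITIM, the tail motif that Fcgr2b also has, lay on one side. The motif was not looked for in the mouse proteins, Cd33 among them. All 10 tested of 11 had both KPC libraries above both wild type libraries, beside 20.6% of all rows, with a median log2 fold change of 2.69. An unadjusted edgeR p under 0.05 was found for 8 of them, beside 4.73% of all rows on the higher side. Cd33, a sialic acid-binding lectin, stood at 1.41 and 1.12 CPM in KPC, against 0.0571 and 0.0894 CPM in wild type, a log2 fold change of 4.16 ± 0.47 (SE, edgeR adjusted p = 0.211). Cd300lf stood at 12.7 and 10.3 CPM in KPC, against 0.438 and 1.34 CPM in wild type, Clec12a at 1.07 and 3.91 CPM, against 0.190 and 0.224 CPM, and the collagen receptor Lair1 at 2.26 and 3.98 CPM, against 0.894 and 0.671 CPM.

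Further along the pathway the lists were mixed. For comparison, 4.73% of all rows had an unadjusted edgeR p under 0.05 on the higher side and 3.94% on the lower side. Of the 8 Src-family kinases, 6 log2 fold changes were positive with a median of 0.39, and 2 had an unadjusted edgeR p under 0.05: Lyn at 17.7 and 20.3 CPM in KPC, against 11.9 and 13.3 CPM in wild type, and Fgr at 1.63 and 2.43 CPM, against 0.913 and 1.03 CPM. Src stood at 85.8 and 53.4 CPM in KPC, against 31.0 and 52.2 CPM in wild type, and Blk at 0.255 and 0.428 CPM, against 0.533 and 0.537 CPM. Of the 21 signalling proteins downstream of Syk, 17 were positive with a median of 0.74, 9 had an unadjusted p under 0.05 on the higher side and 0 on the lower side. The adaptor gene Lat2 stood at 11.5 and 22.4 CPM in KPC, against 1.41 and 2.68 CPM in wild type, a log2 fold change of 3.07 ± 0.51 (SE, edgeR adjusted p = 0.289). Card9, which links Syk to NF-kappaB, stood at 3.03 and 6.91 CPM in KPC, against 0.114 and 0.581 CPM in wild type. Pik3ap1 (2.41 and 2.86 CPM in KPC, against 0.932 and 0.850 CPM in wild type) and Sh3bp2 (12.5 and 10.8 CPM, against 5.52 and 3.76 CPM) also lay apart.

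Of the 13 phosphatases and other brakes of the pathway, 9 log2 fold changes were positive with a median of 0.12. The groups did not overlap in 4 on the higher side and 2 on the lower side, beside 20.6% and 20.5% of all rows. At an unadjusted edgeR p under 0.05, 2 were higher and 0 lower, beside 4.73% and 3.94% of all rows. The docking protein gene Dok2 had the smallest p of them, at 10.0 and 11.3 CPM in KPC, against 0.761 and 0.939 CPM in wild type, a log2 fold change of 3.66 ± 0.28 (SE, edgeR adjusted p = 0.211). Ptpn6, the phosphatase SHP-1 of blood cells, stood at 5.42 and 11.5 CPM in KPC, against 0.628 and 2.42 CPM in wild type. Dok3 (2.52 and 7.22 CPM in KPC, against 2.44 and 1.43 CPM in wild type) and Pag1 (6.44 and 4.45 CPM, against 3.56 and 3.67 CPM) were the other two of smallest p.

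Genes around Trem2 fell in 2 lists. Of its ligands, uptake partners and shedding proteases, 5 of 7 tested were positive with a median of 0.27. The lipoprotein gene Apoe stood at 107 and 139 CPM in KPC, against 53.1 and 77.5 CPM in wild type. Clu, another lipoprotein component, was at 1135 and 221 CPM in KPC, against 43.0 and 390 CPM in wild type, and Apob at 16.6 and 0.103 CPM, against 0.457 and 0.403 CPM, so the groups overlapped for both. The sheddase gene Adam17 stood at 28.3 and 30.1 CPM in KPC, against 25.8 and 22.5 CPM in wild type. Of 17 tested genes known to depend on Trem2 in mouse microglia or fat-tissue macrophages, 14 were positive with a median of 1.12. On the higher side, 7 had an unadjusted edgeR p under 0.05, beside 4.73% of all rows. The galectin gene Lgals3 stood at 272 and 217 CPM in KPC, against 37.5 and 46.4 CPM in wild type, a log2 fold change of 2.54 ± 0.23 (SE, edgeR adjusted p = 0.211). Gpnmb, a membrane glycoprotein of lysosome-rich cells, stood at 211 and 136 CPM in KPC, against 24.01 and 42.0 CPM in wild type, the integrin gene Itgax at 8.87 and 5.72 CPM, against 0.514 and 1.25 CPM, and the protease gene Ctsd at 1973 and 2156 CPM, against 833 and 1172 CPM. The 3 genes below 0, named after their values were seen, were Cd63, Axl and Fabp4. Fibroblasts and epithelial cells also make several of these, Lgals3 and Ctsd among them.

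**Figure D5:**
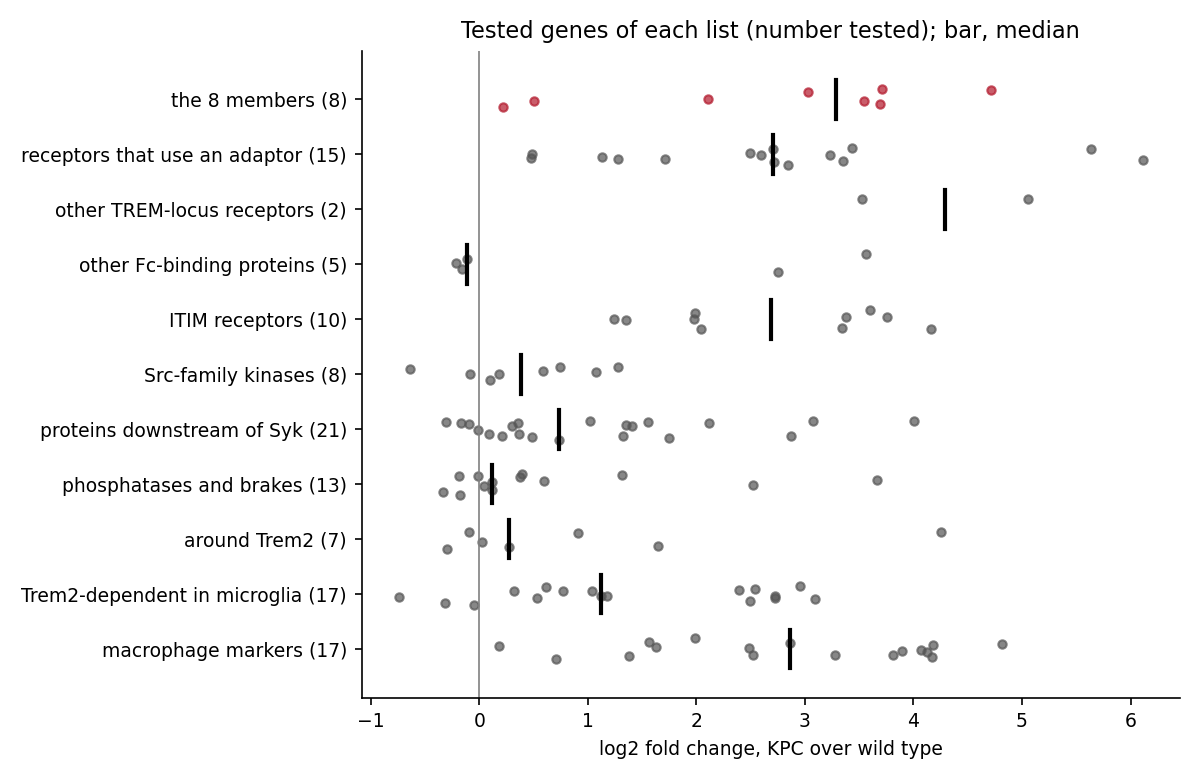
Log2 fold change of KPC over wild type in edgeR for each tested gene of each list, 1 point per gene, with the median as a bar and the number tested in brackets. The medians of the adaptor-using receptors and the ITIM receptors (2.70 and 2.69) lie near that of the macrophage markers (2.86). The other TREM-locus receptors (2 tested) have a median of 4.29, and the other Fc-binding proteins (5 tested) a median of -0.11. For the kinases, downstream proteins and brakes the medians are 0.39, 0.74 and 0.12, while single genes of these lists range widely.

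The rows closest in pattern were found by the root mean square difference of log2 CPM, centred on each gene's mean over the 4 libraries, among 13238 rows with a mean of at least 5 CPM. For Tyrobp these were Clec4n (0.17), Gm14023 (0.22), Il1a (0.23), Lad1 (0.27) and Clec4d (0.31); the Gm14023 and Il1a intervals overlap by 8216 bases and share reads. For Fcer1g they were Csf2rb2 (0.09), Mmp12 (0.11), Hk3 (0.20), Msr1 (0.23) and Gp49a (0.27). Mmp12 stood at 104 and 141 CPM in KPC, against 1.39 and 23.7 CPM in wild type. For Syk the nearest were Phf15 (0.28), Mtss1 (0.28), Sdcbp2 (0.29), Serpinb9 (0.30) and Parvb (0.34), all low in wild type 2. With 4 libraries, many genes can look alike: 17 rows lay within 0.5 of Tyrobp, 23 of Fcer1g and 37 of Syk.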

How the data were processed

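The libraries were made from poly-A RNA and read from one end for 50 bases, per the labels' protocols. FastQC 0.10.1, TopHat2 2.0.3, SAMtools 0.1.18, bedtools and the build mm10/GRCm38 are named in the submitters' processing notes, with no roles. For each library the authors deposited a table without a header, with 38921 gene intervals: a count of reads, the bases covered, the length and the fraction covered (the deposited fraction was not used further). That the count is raw was read from its whole numbers and unequal totals. Strand and the handling of reads with several matches are not given in the sources used here, so copies and overlapping or antisense genes are uncertain (the antisense gene Gm38204 overlaps Fcgr2b).

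Counts were analysed in R 4.3.3 with edgeR 4.0.16 (filterByExpr with a minimum count of 10, TMM factors between 0.988 and 1.02, quasi-likelihood test of KPC over wild type, two-sided, Benjamini-Hochberg over 23046 rows). SE is the unshrunk log2 fold change over the square root of F. Alternatives were RLE, upper quartile or no factors, other filters, limma 3.58.1 voom, DESeq2 1.42.0, a block for the replicate number, and leaving out each library. The script was tested on simulated counts. Exon lengths and overlaps came from GENCODE M21 (GRCm38); promoters came from RefSeq. Older symbols were matched through RefSeq synonyms for 3 list genes, Emr1 (Adgre1) among them; Ms4a4a had no match. The text names all members, the 5 nearest rows of Tyrobp, Fcer1g and Syk, and from each list at most the 4 genes with the lowest p, beside genes given to show a marker's level. The members and lists were chosen with earlier results of these data known. Figures used matplotlib 3.10.9. Some items are not reported here.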

Additional observations from a re-analysis of the deposited data

How the results depend on the processing

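Over all rows, edgeR called 0 higher and 0 lower in KPC with RLE, upper quartile or no factors, without a filter, with at least 1 CPM in 2 libraries, with the nested U1 counts taken out of Fcgr4 and in limma voom. DESeq2 called 333 higher and 294 lower. With 1 library left out the counts ran from 0 to 429 higher and from 0 to 390 lower; the calls came without wild type 2 (429 and 390) or wild type 1 (0 and 6). Among the members, Fcgr1, Fcgr3, Fcgr2b, Trem2, Fcer1g and Tyrobp kept a positive log2 fold change in every alternative run. Leaving out 1 library gave -0.18 to 0.80 for Fcgr4, its nested row included, and -0.21 to 2.08 for Syk, negative without wild type 2. It gave 2.00 to 7.36 for Tyrobp, 2.53 to 6.71 for Fcer1g, 2.77 to 5.89 for Trem2, 3.81 to 6.51 for Fcgr2b, 2.83 to 5.82 for Fcgr3 and 1.09 to 2.70 for Fcgr1. At an adjusted threshold of 0.10, no member passed in edgeR with all 4 libraries, while in DESeq2 Fcgr1 (0.0695) and Fcgr2b (1.05e-06) were under it. The groups share replicate numbers, but nothing in the labels pairs them (correlation of deviations 0.136 with 2 pairs); with the replicate block 0 rows were called higher and 0 lower, and the smallest adjusted p of a member was 0.197. The wild type levels of Tyrobp, Fcer1g, Fcgr2b and Trem2 rest on 7 to 20 counts in wild type 1, so their fold changes are imprecise.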
